A study of Mus musculus with 6 samples.

Results

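The genes described here are 35 genes of glycolysis and of the cellular response to low oxygen, chosen by name for their roles. They run from the glucose transporters through the enzymes of the glycolytic chain to the genes that decide between lactate and mitochondrial oxidation, and on to the hypoxia-inducible factors, their oxygen sensors and well known target genes. Of the 35 genes, 33 had a probe set that names exactly 1 gene, among 18194 such genes on the array. Each gene was read from its brightest probe set, judged by the average of the 6 arrays, and a gene counted as detected when that probe set lay above the array's own median on at least 1 array. In all 32 of the genes were detected, among 12257 detected genes. Gpi1 and Eno1 were not analysed here, since no probe set names them alone, and Aldoc lay below the median on every array, at log2 levels of 4.21 to 5.03.

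The RNA came from cells sorted from the left ventricle of adult male Black Swiss mice, aged 8 to 10 weeks, that carry Tie2cre. Tie2cre is a Cre recombinase that the Tek promoter drives; Tek encodes the angiopoietin receptor of endothelial cells. The tracing therefore marks cells in which that promoter is or once was active, in the cells themselves or in their ancestors. Of the mice, 3 had transverse aortic constriction (TAC), which overloads the left ventricle with pressure, and 3 had a sham operation, and cells were taken 1 week later. The 6 groups are traced fibroblasts, untraced fibroblasts and endothelial cells after sham and after TAC, each with 1 array. The labels do not say whether the arrays of a surgery share hearts or whether RNA of several mice was pooled, so differences between surgeries and between traced and untraced cells have no replicate error and no test.

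Glycolysis splits glucose into pyruvate in the cytosol. Pyruvate is then reduced to lactate by lactate dehydrogenase and exported with protons by monocarboxylate transporters, or oxidised in the mitochondrion through pyruvate dehydrogenase, which the Pdk kinases switch off. In oxygenated cells prolyl hydroxylases of the Egln family mark the HIF alpha subunits, Hif1a and Epas1, for degradation. When oxygen is low the subunits persist, pair with Arnt and switch on most of the glycolytic genes, together with genes such as Egln3 that feed back on the pathway. Cardiac endothelial cells are known to be strongly glycolytic and rich in Epas1, and fibroblasts that become activated are known to take up more glucose and release more lactate.

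Glycolytic enzymes have close paralogs and many processed pseudogenes, and a probe set of the s or x type can match several of them, so the values of single family members are uncertain to that extent. Several arrays stood apart in ways that touch the values below. The 10 endothelial markers had a median log2 level of 13.18 and 12.95 on the endothelial sham and TAC arrays and of 6.56 to 7.47 on the fibroblast arrays. The 11 fibroblast markers had medians of 13.15 to 13.43 on the fibroblast arrays, and on the endothelial arrays their median was 8.10 after sham and 11.05 after TAC. In endothelial cells all 11 were at least 2-fold higher after TAC than after sham. On the linear scale they stood at 0.989% to 6.53% of the fibroblast level at sham and at 9.71% to 64.5% after TAC. The 12 macrophage markers had endothelial medians of 6.21 and 7.19, the 10 cardiomyocyte markers of 9.69 and 8.71, and the 9 mural cell markers of 10.68 and 9.76. In both fibroblast populations 4 of the mural markers were at least 2-fold lower after TAC and 2 at least 2-fold higher. The part of these markers in the results was not tested. The untraced TAC array had the lowest mean signal of the 18S control probe sets, at 12.04 against 14.11 to 14.64 elsewhere, and the widest gap between the 3′ and 5′ control probe sets of Gapdh, at 2.10 against 1.12 to 1.36. The bioB spike-in read 8.78 to 9.42 in fibroblasts and 11.19 to 11.36 in endothelial cells. In sorted bulk samples, fewer cells of a type and less RNA per cell cannot be told apart.

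After TAC the fibroblasts carried more RNA for the lactate exporters Slc16a3 and Slc16a1, for lactate dehydrogenase A, for the glycolytic enzyme Pgk1, for the pyruvate dehydrogenase kinase Pdk1 and for Hif1a, and less for lactate dehydrogenase B and for Ndrg1. These 8 genes differed in the same direction by at least 1.5-fold in traced and in untraced cells. At least 2-fold higher in both populations were 2 of the 32 genes, Slc16a3 and Hif1a, against a background of 4.19% of all detected genes. At least 1.5-fold higher in both were 6 of the 32, against 8.62% of all detected genes, and at least 1.5-fold lower in both were 2, against 4.79%. None of the 32 was 2-fold lower in both, where 1.79% of all detected genes were, and Ndrg1 passed that fold in untraced cells alone, with 2.95% of all genes. In all 3 populations 5 of the 32 genes were at least 1.5-fold higher, namely Pgk1, Ldha, Slc16a1, Slc16a3 and Hif1a, against 5.06% of all detected genes. The median difference of the 32 genes was 0.16 in traced and 0.06 in untraced fibroblasts on the log2 scale, and that of all detected genes was 0.07 and 0.02.

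The clearest block was the gate between lactate and pyruvate. Slc16a3, the monocarboxylate transporter MCT4 that exports lactate from glycolytic cells, read 8.43 and 8.62 on the traced and untraced sham arrays, 9.48 and 9.67 on their TAC arrays, and 6.87 and 8.26 on the endothelial sham and TAC arrays. Both fibroblast TAC arrays lay above both fibroblast sham arrays, and both endothelial arrays lay below all of them. The TAC difference was 1.05 in traced and 1.05 in untraced cells, or 2.07-fold and 2.06-fold, and 1.39 in endothelial cells. Slc16a1, the related transporter MCT1 that carries lactate in either direction, lay at 8.58 and 8.85 on the fibroblast sham arrays, at 9.40 and 9.66 on the TAC arrays, and at 6.84 and 8.12 on the endothelial arrays. Its order of arrays was that of Slc16a3, with differences of 0.82, 0.81 and 1.28.

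Ldha, the lactate dehydrogenase subunit that favours lactate formation, lay at 12.28 and 12.51 on the traced and untraced sham arrays and at 12.97 and 13.27 on the TAC arrays. Its endothelial levels of 12.52 and 13.22 lay within the range of the fibroblast levels. The TAC differences of 0.68, 0.76 and 0.70 were nearly equal in the 3 populations. Ldhb, the subunit that favours lactate use, went the other way in fibroblasts, from 10.90 and 11.13 at sham to 10.09 and 10.28 after TAC, while the endothelial arrays read 10.00 and 10.07. All 4 probe sets of Ldhb were lower in both fibroblast populations, with mean differences of -0.95 to -0.83. In endothelial cells the main probe set gave 0.08 and the others lay down to -0.67, so no direction can be given there. Pdk1, which phosphorylates and silences pyruvate dehydrogenase, lay at 7.51 and 8.00 at sham and at 8.22 and 8.64 after TAC in the traced and untraced fibroblasts. Both TAC levels were above both sham levels, with differences of 0.70 and 0.65, and the endothelial levels were 8.39 and 8.78. In endothelial cells the probe sets of Pdk1 gave -0.41 to 0.39, so no direction can be given there.

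**Figure D1:**
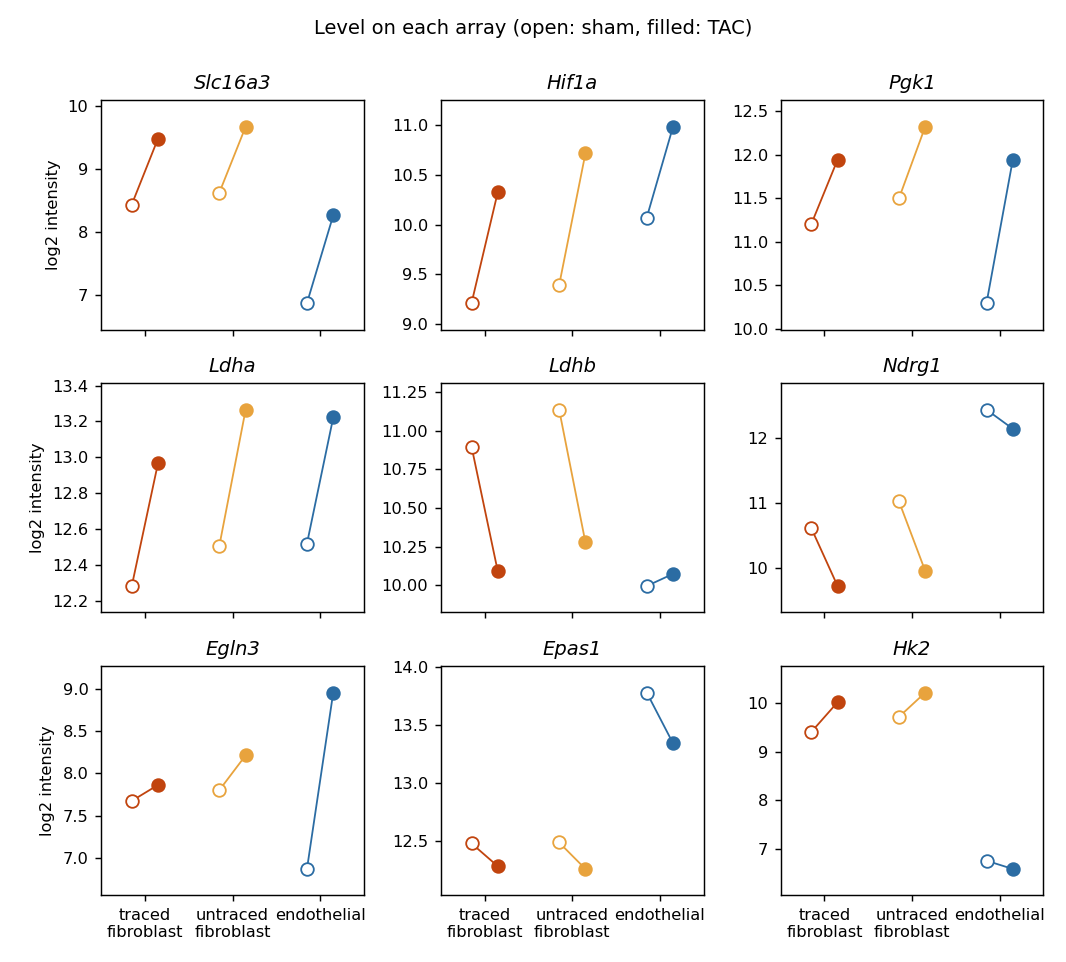
Level of 9 genes on each of the 6 arrays, as log2 of the probe set intensity, with 1 array per point, open circles for sham, filled circles for TAC and a line joining the arrays of a population. Each panel has its own vertical range, so slopes cannot be compared between panels. Slc16a3, Hif1a, Pgk1 and Ldha were higher after TAC in all 3 populations, Ldhb and Ndrg1 were lower in both fibroblast populations, and Hk2 lay far lower on the endothelial arrays.

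Hif1a, the oxygen-labile subunit of HIF-1, read 9.21 and 9.39 on the traced and untraced sham arrays and 10.33 and 10.71 on the TAC arrays. The endothelial arrays read 10.07 and 10.98. In each population the TAC array was the higher, and the endothelial sham array lay between the fibroblast sham and TAC arrays. The differences were 1.11, 1.32 and 0.91, or 2.16-fold, 2.50-fold and 1.88-fold. All 4 of its probe sets were higher after TAC, by 0.68 to 1.62 in traced, 0.89 to 1.32 in untraced and 0.91 to 1.36 in endothelial cells. RNA of Hif1a does not report its protein, which is set mainly by degradation.

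Epas1, the alpha subunit of HIF-2, did not share that direction. It lay at 12.48 and 12.49 on the fibroblast sham arrays, at 12.28 and 12.26 on the TAC arrays, and at 13.78 and 13.34 on the endothelial sham and TAC arrays. The differences of -0.20, -0.23 and -0.44 were all below 1.5-fold, and both of its probe sets were lower after TAC in each population. The arrays therefore showed more Hif1a and slightly less Epas1 after TAC in the same cells. Egln1, the main oxygen sensor that hydroxylates both subunits, read 10.82 and 11.14 at sham and 10.94 and 10.92 after TAC in the traced and untraced fibroblasts, and 12.19 and 11.92 in endothelial cells. Its fibroblast levels after TAC lay within the range of the sham levels.

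Egln3, the prolyl hydroxylase that HIF itself induces, had the highest TAC difference of the 32 genes in endothelial cells. It read 6.87 on the endothelial sham array and 8.95 on the endothelial TAC array, a 4.23-fold difference. The traced and untraced fibroblasts read 7.68 and 7.80 at sham and 7.86 and 8.21 after TAC, differences of 0.19 and 0.41. The endothelial sham array was the lowest of the 6 and the endothelial TAC array the highest. The other probe set of Egln3 gave 0.14, 0.09 and 1.26, again with the highest value in endothelial cells but a smaller one.

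The first steps of the chain moved less in fibroblasts. Slc2a1 and Slc2a3, the glucose transporters GLUT1 and GLUT3, differed by 0.01 to 0.37 in the fibroblast populations. Hk1, the widely expressed hexokinase, differed by 0.02 and 0.09. Hk2, the inducible hexokinase that commits glucose to the pathway, was higher by 0.61 and 0.50. Pfkl, the liver-type phosphofructokinase, was higher by 0.83 and 0.48, while the platelet-type Pfkp was lower by the same order, at -0.52 and -0.49. Pfkm, the muscle type, differed by 0.23 and -0.21. Pfkfb3 and Pfkfb4, which make and break the activator of phosphofructokinase, lay between -0.46 and -0.03 after TAC. A second probe set of Pfkfb3 gave 0.52 and 0.20, so its direction depended on the probe set.

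Between aldolase and pyruvate kinase, Pgk1 stood out. Pgk1, the phosphoglycerate kinase that makes the first ATP of the pathway, read 11.20 and 11.50 on the traced and untraced sham arrays, 11.94 and 12.32 on the TAC arrays, and 10.29 and 11.94 on the endothelial arrays. Every TAC array lay above every sham array. The differences were 0.74, 0.82 and 1.64, or 1.67-fold, 1.77-fold and 3.13-fold, and all 3 probe sets gave at least 0.58. Tpi1, the triose isomerase, was higher by 0.46 and 0.50 in fibroblasts, Pgam1 by 0.27 and 0.37, and Pkm, the pyruvate kinase of most tissues, by 0.11 and 0.16. Aldoa, the main aldolase of the heart, differed by -0.18 and -0.24, and the neuronal enolase Eno2 by -0.01 and -0.51. The 3′ probe set of Gapdh gave 0.18 and 0.34, whereas its 5′ probe set gave 0.11 in traced and -0.43 in untraced cells, whose TAC array had the widest 3′ to 5′ gap.

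The other hypoxia genes did not move as one group in fibroblasts. Ndrg1, a stress gene induced by hypoxia in many cell types, read 10.61 and 11.02 on the traced and untraced sham arrays, 9.72 and 9.95 on the TAC arrays, and 12.43 and 12.14 on the endothelial arrays. Both fibroblast TAC arrays were below both sham arrays, by -0.89 and -1.07, and all 5 probe sets were lower in both fibroblast populations and in endothelial cells. Adm, the vasodilator peptide adrenomedullin, was lower in both fibroblast populations with both of its probe sets, by -0.32 and -1.10 in traced and -0.51 and -1.06 in untraced cells. P4ha1, a collagen prolyl hydroxylase, differed by -0.13 and -0.33. Bnip3, a mitophagy receptor, and Ddit4, an inhibitor of mTORC1, differed by 0.02 to 0.14. Ankrd37 was higher by 0.76 in traced and 0.09 in untraced cells, and Mif, a cytokine, differed by 0.12 and -0.26. Higher Hif1a RNA thus stood beside lower RNA of Ndrg1 and Adm on the same arrays.

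**Figure D2:**
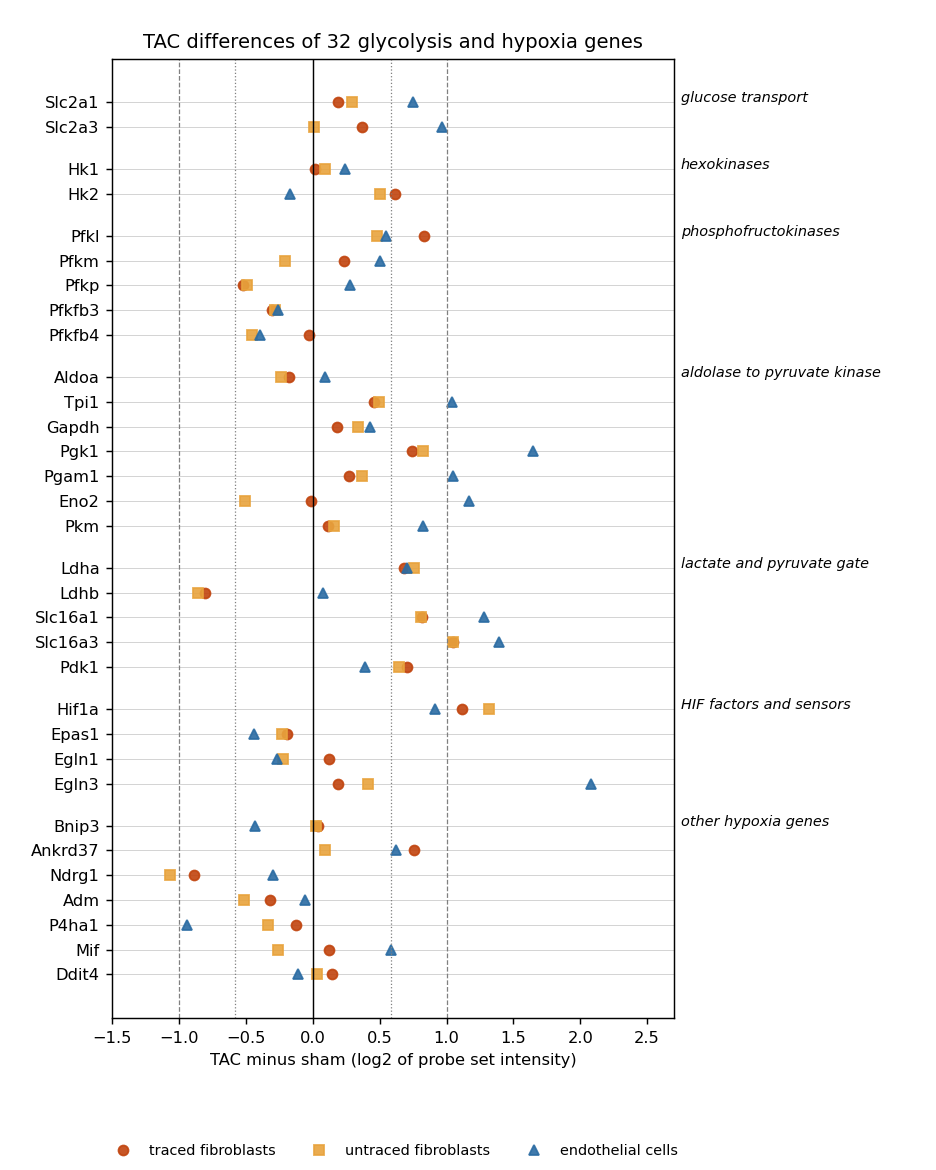
TAC minus sham of the 32 detected genes, as a difference of log2 probe set intensity, with 1 point per population (circles traced fibroblasts, squares untraced fibroblasts, triangles endothelial cells) and genes ordered by role. Dotted lines mark 1.5-fold and dashed lines 2-fold. The lactate and pyruvate genes other than Ldhb lie to the right of 0 in all 3 populations, for Pdk1 in endothelial cells not with every probe set. Egln3 in endothelial cells has the highest value, 2.08.

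HIF complexes bind the core ACGTG, and less tightly the core GCGTG, so the promoters of the genes that were higher after TAC in all 3 populations are shown with that of Egln3. The windows are the 250 bases before the annotated start, from RefSeq on the mouse build GRCm38.p6, on the strand of the gene. Capitals mark every match of ACGTG on either strand, so that the palindrome CACGTG, which matches on both strands, counts as 1 site. The windows are chr11:120948817-120949066 for Slc16a3, chr3:104638414-104638663 for Slc16a1, chr7:46845554-46845803 for the first of the 2 starts of Ldha, chrX:106186850-106187099 for Pgk1 and chr12:73907617-73907866 for Hif1a, all on the plus strand, and chr12:54203875-54204124 on the minus strand for Egln3.
Slc16a3: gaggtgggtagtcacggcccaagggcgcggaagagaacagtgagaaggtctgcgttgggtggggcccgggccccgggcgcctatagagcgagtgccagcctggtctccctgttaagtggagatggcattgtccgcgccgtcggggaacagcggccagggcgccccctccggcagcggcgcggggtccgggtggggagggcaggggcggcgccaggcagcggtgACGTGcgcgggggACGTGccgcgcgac
Slc16a1: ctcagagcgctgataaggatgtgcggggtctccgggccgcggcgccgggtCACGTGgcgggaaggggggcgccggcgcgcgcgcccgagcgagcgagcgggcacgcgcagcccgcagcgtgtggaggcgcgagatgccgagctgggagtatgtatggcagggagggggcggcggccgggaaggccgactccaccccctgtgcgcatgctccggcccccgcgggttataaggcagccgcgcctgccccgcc
Ldha: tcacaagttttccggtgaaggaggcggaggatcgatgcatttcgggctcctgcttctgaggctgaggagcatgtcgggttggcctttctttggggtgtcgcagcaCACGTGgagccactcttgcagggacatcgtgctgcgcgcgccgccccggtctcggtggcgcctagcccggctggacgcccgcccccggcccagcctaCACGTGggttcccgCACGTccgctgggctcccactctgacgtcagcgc
Pgk1: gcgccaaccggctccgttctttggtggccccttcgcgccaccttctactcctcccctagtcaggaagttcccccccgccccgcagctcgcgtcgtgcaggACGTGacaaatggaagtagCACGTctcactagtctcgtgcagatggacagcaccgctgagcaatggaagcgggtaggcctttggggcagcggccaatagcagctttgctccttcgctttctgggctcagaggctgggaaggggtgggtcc
Hif1a: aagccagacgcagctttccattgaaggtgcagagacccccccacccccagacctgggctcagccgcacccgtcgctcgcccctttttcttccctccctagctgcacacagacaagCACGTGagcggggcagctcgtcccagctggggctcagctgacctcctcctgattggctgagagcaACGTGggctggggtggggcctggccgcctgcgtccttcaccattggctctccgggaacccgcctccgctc
Egln3: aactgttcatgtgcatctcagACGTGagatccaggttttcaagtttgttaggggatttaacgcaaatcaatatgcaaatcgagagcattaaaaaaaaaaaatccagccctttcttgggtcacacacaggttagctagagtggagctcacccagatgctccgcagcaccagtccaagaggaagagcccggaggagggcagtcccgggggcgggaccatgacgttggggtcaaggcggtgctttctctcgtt
Slc16a3 held 2 sites, 27 and 14 bases before the start, and the window shown for Ldha held 3, at 145, 48 and 34 bases, while the window at its other start held none. Pgk1 held 2 sites, 150 and 131 bases before the start, and Hif1a 2, at 135 and 70 bases. Slc16a1 held 1 palindromic site 200 bases before the start, and Egln3 held 1 at 229 bases. Among 32851 such windows of the reference table, 16.6% held ACGTG on either strand. Among the 45 windows found for the 35 genes, 21 did, or 46.7%, in 18 of the 32 genes that have a window. These are not the 32 detected genes: Gpi1, Eno1 and Aldoc have a window, and Ndrg1, Epas1 and Slc2a3 have none. The core GCGTG stood in 25 of the 45 windows, or 55.6%, against 28.2% of all windows. Neither window of Pdk1, which was higher after TAC in both fibroblast populations, held ACGTG, and the first of them held 1 GCGTG. The window of Ldhb, which was lower, likewise held no ACGTG and 1 GCGTG. The genes were chosen partly as known HIF targets, so these shares describe the list. A match is a run of letters and does not show that a factor was bound.

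In endothelial cells more of the list passed these folds after TAC than in both fibroblast populations, as did more of all detected genes. The fibroblast counts need both populations to pass, whereas the endothelial counts rest on a single comparison. Egln3 and Pgk1 had the highest differences in endothelial cells. At least 2-fold higher were 7 of the 32 genes, against 10.9% of all detected genes: Tpi1, Pgk1, Pgam1, Eno2, Slc16a1, Slc16a3 and Egln3. At least 1.5-fold higher were 14, against 24.7% of all genes, with Slc2a1, Slc2a3, Pkm, Ldha, Hif1a, Ankrd37 and Mif as the further members. P4ha1 was the single gene at least 1.5-fold lower, where 7.42% of all genes were, and none was 2-fold lower, where 1.73% were. The median of the 32 genes was 0.46 and that of all detected genes 0.18. Quantile normalization moved the median of all genes on this contrast to 0.07. It also changed the split of all genes past 1.5-fold, from 3022 higher and 910 lower to 2434 higher and 1369 lower. Under it, 5 of the 32 genes stayed 2-fold higher, where 1192 of all 12257 detected genes were, with Tpi1 at 0.90 and Pgam1 at 0.94 below that fold. Eno2 read 4.82 and 5.99 on the endothelial arrays, both below the array median, and with 32 added before log2 its difference of 1.17 became 0.66.

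Tpi1 read 10.06 on the endothelial sham array and 11.10 on the TAC array, beside 10.95 and 11.00 on the fibroblast sham arrays and 11.41 and 11.50 on the fibroblast TAC arrays. Pgam1, the phosphoglycerate mutase, read 10.71 and 11.75 in endothelial cells, beside 11.70 and 11.81 and then 11.98 and 12.18 in the fibroblasts. For both genes the endothelial sham array was the lowest of the 6, and the endothelial TAC array came up to within 0.35 and 0.33 of the mean of the fibroblast TAC arrays. The glucose transporters Slc2a1 and Slc2a3 were higher by 0.75 and 0.96 and Pkm by 0.82, against at most 0.37 for these genes in fibroblasts. P4ha1 read 11.89 and 10.95 in endothelial cells, a difference of -0.94, and its other probe set gave -1.34. Adm had no settled direction in endothelial cells, with -0.06 from the main probe set and 1.04 from the other. Of the 19 genes with several probe sets above the median on some array, all probe sets had the same sign in 17 genes for traced fibroblasts, in 14 for untraced fibroblasts and in 14 for endothelial cells.

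On the endothelial TAC array all 11 fibroblast markers read higher than at sham. So did 22 of the 32 genes, or 68.8%, against 63.0% of all detected genes. As a percent of the fibroblast TAC level on the linear scale, the 11 fibroblast markers were higher in endothelial cells after TAC than after sham by 5.16% to 61.5%, with a median of 23.6%. Measured the same way, Egln3 was higher by 144%, Hif1a by 64.4% and Pgk1 by 59.6%. Tpi1, Pgam1 and Ldha stood at 40.2%, 41.2% and 41.4%, Slc16a3 and Slc16a1 at 24.9% and 22.1%, and Eno2 at 4.81%. After TAC the endothelial level of Egln3 exceeded both fibroblast levels and stood at 189% of their mean. Hk2, which fibroblasts carried at a far higher level, went from 14.2% of the fibroblast level at sham to 8.60% after TAC. Its endothelial difference was -0.17 on the log2 scale, with both endothelial levels below the array median, so no fall can be read there. The fibroblast levels of Hk2 were higher after TAC. The part of the fibroblast markers in any of these differences was not tested.

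**Figure D3:**
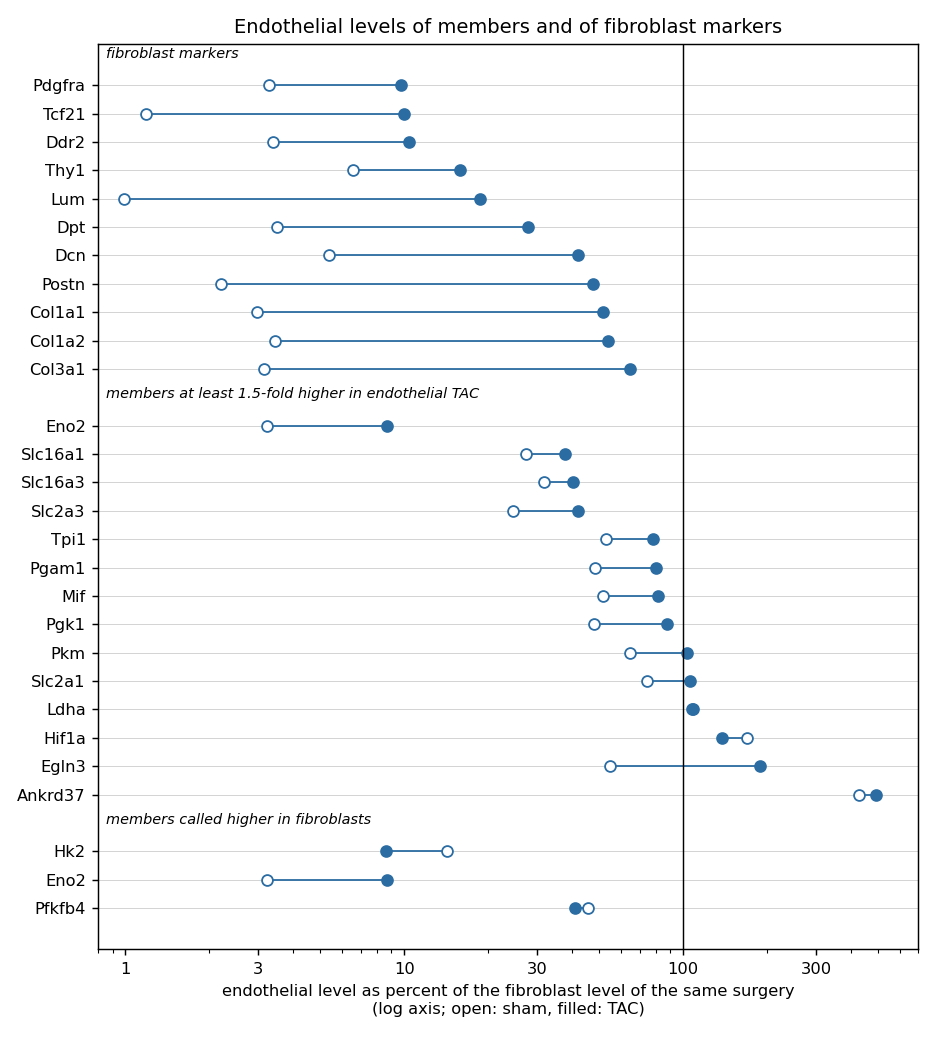
Endothelial level as a percent of the mean fibroblast level of the same surgery, on a log axis, open circles for sham and filled circles for TAC, for the 11 fibroblast markers, the 14 genes at least 1.5-fold higher in endothelial cells after TAC and the 3 genes called higher in fibroblasts. The markers went from between 0.989% and 6.53% to between 9.71% and 64.5%. Egln3 crossed the fibroblast level with the probe set used but not with its other probe set. Hk2 went from 14.2% to 8.60%, with both endothelial levels below the array median and higher fibroblast levels after TAC.

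The comparison of fibroblasts with endothelial cells was the one contrast with a repeat, since each surgery gave 1 value per cell type after the traced and untraced arrays were averaged. Epas1, Egln1, Ankrd37, Ndrg1 and Pfkfb3 were higher in endothelial cells, and Hk2, Eno2 and Pfkfb4 were higher in fibroblasts. A gene was called with limma at a Benjamini-Hochberg adjusted p under 0.05 over the 12257 detected genes and a difference of at least 2-fold. Higher in endothelial cells were 5 of the 32 genes, against 6.5% of all detected genes, and higher in fibroblasts were 3, against 11.5%. Those 3, Hk2, Eno2 and Pfkfb4, lay below the array median on both endothelial arrays and passed the detection filter only through the fibroblast arrays, so a difference was built into their passing and their count is a description. The p-values rest on 2 values per cell type and 2 residual degrees of freedom. They measure only the spread between the surgeries, which may be partly technical. For both SE and p-value, limma draws that spread of a gene toward the spread of all detected genes.

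The HIF-2 subunit and the main sensor were higher in endothelial cells together. Epas1 differed by -1.19 (SE 0.27, n = 2; limma adjusted p = 0.0473) and Egln1 by -1.10 (SE 0.23, n = 2; limma adjusted p = 0.0402), from the levels given above, and both endothelial arrays lay above all fibroblast arrays for each gene. Ankrd37, a HIF target of little known function, read 7.76 and 8.53 at sham and 8.52 and 8.62 after TAC in the fibroblasts and 10.25 and 10.87 in endothelial cells. Its difference was -2.20 (SE 0.33, n = 2), or 4.59-fold higher in endothelial cells, with a limma adjusted p of 0.0191. Ndrg1 was 3.89-fold higher in endothelial cells, a difference of -1.96 (SE 0.40, n = 2; limma adjusted p = 0.0375).

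Hk2 read 9.41 and 9.72 on the traced and untraced sham arrays, 10.02 and 10.22 on the TAC arrays, and 6.75 and 6.58 on the endothelial arrays. The groups did not overlap. The difference was 3.18 (SE 0.29, n = 2 per cell type), with a limma adjusted p of 0.00764. Eno2 read 9.65 and 9.90 at sham and 9.64 and 9.39 after TAC in the fibroblasts, and 4.82 and 5.99 in endothelial cells. Its difference was 4.24 (SE 0.45, n = 2), with a limma adjusted p of 0.00997. RMA compresses differences of dim probe sets, so no fold is given for these genes. Since Hk2 and Eno2 passed the detection filter only through the fibroblast arrays, their p-values and lack of overlap are descriptions.

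Pfkfb4 read 7.38 and 7.91 at sham and 7.35 and 7.45 after TAC in the traced and untraced fibroblasts, and 6.51 and 6.11 in endothelial cells. It was called higher in fibroblasts, by 1.21 (SE 0.26, n = 2), with a limma adjusted p of 0.0439. Its paralog Pfkfb3, a known driver of glycolysis in sprouting endothelium, went the other way. Pfkfb3 read 8.35 and 7.89 at sham and 8.04 and 7.60 after TAC in fibroblasts and 9.32 and 9.06 in endothelial cells, a difference of -1.22 (SE 0.25, n = 2) with a limma adjusted p of 0.0378. The groups of neither gene overlapped. Pfkfb4 passed the detection filter only through the fibroblast arrays, so its p-value and lack of overlap are descriptions. The probe set used for Pfkfb3 is of the a type, not of the s or x type. With probe sets not of the s, x or a type the difference of Pfkfb3 was -0.55 and was not called (limma adjusted p = 0.264).

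Leaving out an endothelial array leaves 1 endothelial value, which is then assumed to vary like the fibroblast values. For Hk2, Eno2 and Pfkfb4, which passed the filter only through the fibroblast arrays, the calls below remain descriptions. Without the endothelial sham array Hk2, Eno2 and Ankrd37 were called, and Pfkfb3, Pfkfb4, Epas1, Egln1 and Ndrg1 were not, with limma adjusted p between 0.0676 and 0.134. Without the endothelial TAC array Pfkfb3, Pfkfb4 and Ndrg1 were not called, with limma adjusted p between 0.0526 and 0.0787. Without the untraced sham array Pfkfb3, Pfkfb4 and Epas1 were lost, at 0.0538 to 0.0740. Epas1 was also lost without the traced TAC array and Ndrg1 without the traced sham array, at 0.0515 and 0.0537.

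The lactate exporters did not pass this test, but passed with surgery as a block, which pairs the cell types of 1 surgery and calls 18.7% of all detected genes higher in fibroblasts and 9.09% higher in endothelial cells. That fit estimates a further coefficient from the same values, so fewer residual degrees of freedom are left. Slc16a1 was higher in fibroblasts by 1.64 (SE 0.54, n = 2; limma adjusted p = 0.107, or 0.00684 with the block) and Slc16a3 by 1.49 (SE 0.61, n = 2; limma adjusted p = 0.165, or 0.00856 with the block), and for both genes all fibroblast arrays lay above both endothelial arrays. Slc2a3, with a difference of 1.64 (SE 0.39, n = 2), missed the threshold at a limma adjusted p of 0.0531 and was called under 8 of the alternative settings, with 0.0102 under the block. Those 8 settings include the fit with 4 fibroblast arrays entered separately, which counts traced and untraced arrays as replicates though they may share hearts. They also include the fit without the endothelial TAC array, which leaves 1 endothelial value. Pfkl lay higher on both endothelial arrays than on any fibroblast array, with a difference of -1.06 (SE 0.35, n = 2; limma adjusted p = 0.109, or 0.0226 with the block). The cell type difference of Egln3 was 0.87 at sham and -0.91 after TAC with the probe set used. With its other probe set, also above the median on all 6 arrays, it was -0.19 and -1.34, so the side at sham depended on the probe set.

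Fewer of the genes stood 2-fold apart between the cell types after TAC than at sham, as did fewer genes of the whole array. At sham 9 of the 32 genes were at least 2-fold higher in fibroblasts and 7 at least 2-fold lower, where 23.3% and 10.1% of all detected genes were. After TAC the counts were 6 and 5, where 17.6% and 9.6% of all genes were. Pgk1, Pgam1 and Ldhb left the higher group, with differences of 1.05, 1.05 and 1.02 at sham and 0.19, 0.33 and 0.11 after TAC. For Pgk1 and Pgam1 the endothelial level was higher after TAC, whereas for Ldhb the fibroblast level was lower and the endothelial level nearly equal. On the other side Bnip3 went from -1.05 to -0.58. Hk2 went the other way, from 2.81 to 3.54.

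**Figure D4:**
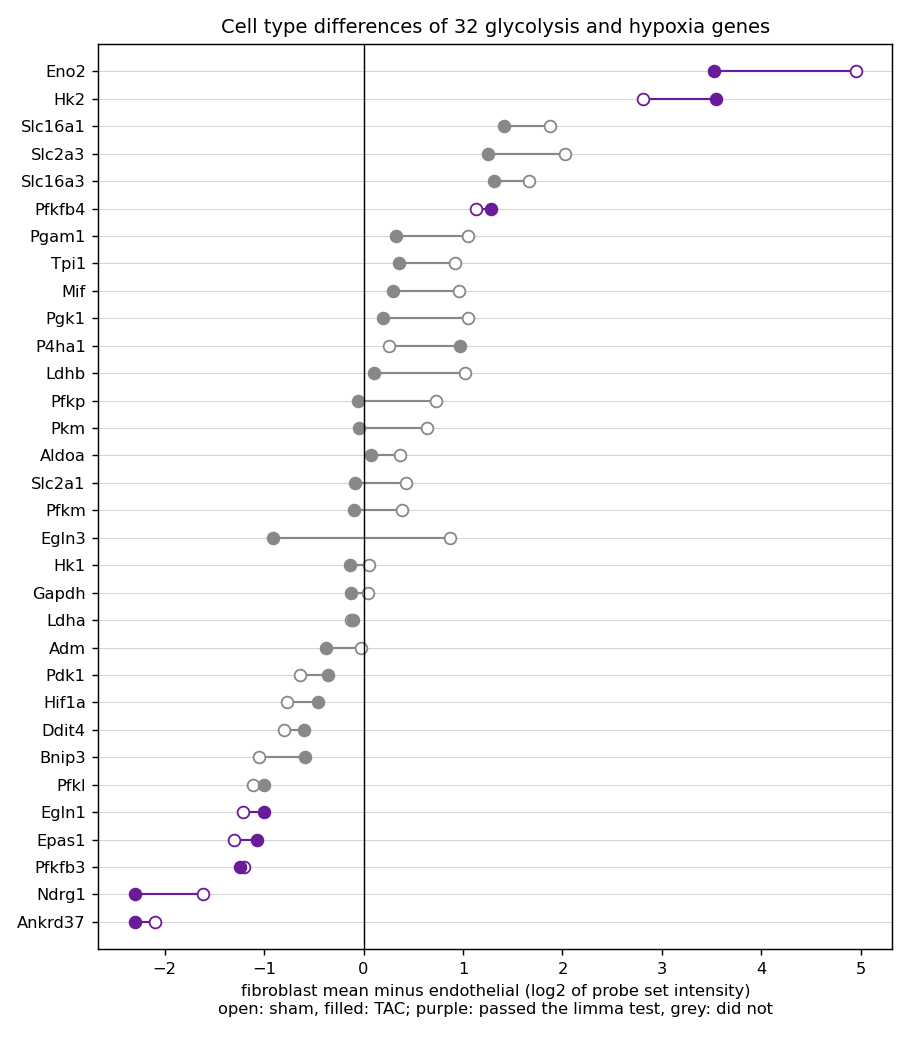
Mean of the traced and untraced fibroblast arrays minus the endothelial array of the same surgery for the 32 detected genes, as a difference of log2 probe set intensity, open circles for sham and filled circles for TAC. Purple marks the 8 genes that passed the limma test and grey the others. Eno2 and Hk2 lie farthest to the right, Ankrd37 and Ndrg1 farthest to the left, and Egln3 changes side between the surgeries, which its other probe set does not show.

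Differences between traced and untraced fibroblasts were small in these genes. None of the 32 was at least 1.5-fold higher in traced cells at both surgeries, where 0.359% of all detected genes were, and none was 1.5-fold lower at both, where 0.351% were. The traced array read below the untraced array for 27 genes at sham and 23 after TAC, and for 22 genes, or 68.8%, at both, against 46.1% of all detected genes. The sizes were small, with medians of -0.21 at sham and -0.10 after TAC beside -0.11 and -0.07 for all genes. Pdk1 differed by -0.48 and -0.42 and Pfkfb3 by 0.46 and 0.44, and Ankrd37 by -0.76 at sham and -0.10 after TAC. The 8 genes past 1.5-fold in both lineages were picked for a shared direction, so that agreement follows from the choice and is no result. For Ankrd37, whose TAC differences were 0.76 and 0.09, the traced sham array lay below the other 3 fibroblast arrays.

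The neighbouring pathways set the 32 genes in context. Of 40 other genes of the HIF pathway, 35 were detected, and in both fibroblast populations 8 of them were at least 1.5-fold higher and 3 at least 1.5-fold lower, where 8.62% and 4.79% of all detected genes were. The 3 with the largest mean difference in fibroblasts were matrix and lipid genes. Lox, the enzyme that crosslinks collagen, was higher by 2.35, 2.97 and 3.73 in traced, untraced and endothelial cells. Its endothelial sham level of 5.97 lay below the array median of 6.84, and its endothelial TAC level of 9.71 below the fibroblast TAC levels of 12.67 and 12.86. The part of the fibroblast markers in the endothelial difference of Lox was not tested. Plod2, which hydroxylates collagen lysines, gave 1.67, 1.65 and 0.33, and Angptl4, an inhibitor of lipoprotein lipase, 1.09, 1.41 and 1.75. The list's median was 0.20, 0.14 and 0.41. Of 25 other glycolysis genes 15 were detected, with medians of -0.01, 0.04 and 0.01. None of these 15 was 1.5-fold higher in both fibroblast populations and 1, Galm, which interconverts the forms of glucose, was lower, by -0.95 and -0.83. Pfkfb2 and Pgm2 followed in size, at -0.62 and 0.51 on the mean of both populations.

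On the mitochondrial side, 25 of 26 genes of pyruvate dehydrogenase and the citric acid cycle were detected, with medians of 0.05, 0.16 and 0.40. The pyruvate dehydrogenase kinases did not move together. Pdk4, the isoform tied to fatty acid use, was lower in fibroblasts by -1.29 and -1.66 and gave 0.17 in endothelial cells, whereas Pdk3 was higher by 1.02, 0.91 and 1.08. With Pdk1 higher by 0.70 and 0.65, the 3 isoforms split by direction in the same cells. Pdhx, a structural subunit of the complex, gave 0.73, 0.43 and 0.99. The 15 detected respiratory chain genes had medians of 0.04, 0.04 and 0.24, and the 7 detected pentose phosphate genes 0.02, -0.07 and 0.52. In the last list H6pd, the glucose-6-phosphate dehydrogenase of the endoplasmic reticulum, was lower in fibroblasts by -0.67 and -0.91.

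Proliferation genes moved far more than any of these on the same arrays. Their 15 detected members had median differences of 2.52, 3.32 and 3.90, and Myc, a transcription factor that also drives Ldha and other glycolytic genes, was higher by 0.73, 0.79 and 3.78. The 11 genes of the Myc list, which holds Ldha, had medians of 0.38, 0.26 and 0.64. The 10 detected reference genes had medians of 0.12, 0.19 and 0.17. The part of proliferation or of Myc in the differences of the glycolytic genes was not tested.

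**Figure D5:**
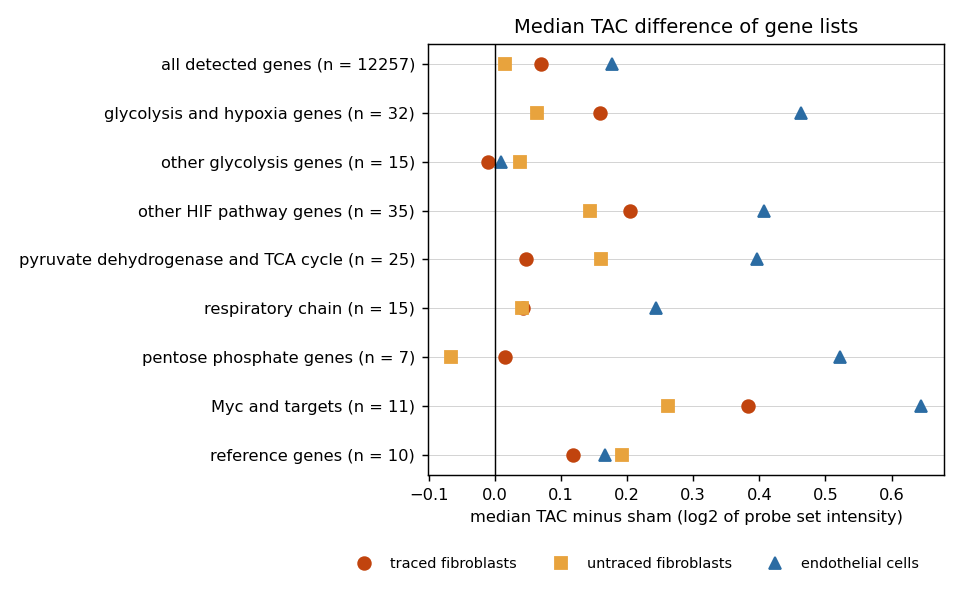
Median TAC minus sham of each gene list, as a difference of log2 probe set intensity, with 1 point per population (circles traced fibroblasts, squares untraced fibroblasts, triangles endothelial cells) and the number of detected genes in brackets. The medians of the glycolysis and hypoxia genes were 0.16, 0.06 and 0.46, beside 0.07, 0.02 and 0.18 for all detected genes.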

How the data were processed

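RNA of 6 sorted populations, 1 array each, was labelled from 200 ng and hybridised to Affymetrix mouse arrays, per the labels' protocols. The deposited intensity values are linear and, per the submitters' processing notes, come from RMA, which corrects background, normalizes arrays and summarises probes. For RMA, neither version nor software is given in the sources used here. Log2 was taken of the intensity with no further normalization. Probe sets were named from the platform annotation, updated to current symbols, and 34958 of 45101 had exactly 1 symbol. The cell type contrast was fitted with limma 3.58.1 under R 4.3.3, a fit that was tested on simulated data. Other contrasts set 1 array against 1 and were not tested. Values on every array are printed for genes past 2-fold after TAC in any population, for called genes and for the HIF factors and sensors; other genes are given by range or count, and other lists by counts and the 3 largest mean differences in fibroblasts. Ldha, Ldhb and Pdk1 were added after their values were seen, as were the further genes named singly. The genes and lists were chosen with earlier results of these data known. The number of arrays limits the precision. Alternatives varied the probe set, the filter, the scaling and the arrays used.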

Additional observations from a re-analysis of the deposited data

Results flagged for a closer look

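Pfkp, the platelet-type phosphofructokinase, drew attention because its TAC difference had opposite signs in the cell types, each larger in size than a spread of 0.24. That spread was estimated from how far the TAC differences of traced and untraced cells disagreed over all genes. Endothelial arrays did not enter it, and it may leave out variation between hearts, since both populations may share hearts. The TAC difference of Pfkp was -0.52 in traced fibroblasts, -0.49 in untraced fibroblasts and 0.28 in endothelial cells, and the difference between cell types was not tested. Its levels were 10.61 and 10.91 on the fibroblast sham arrays, 10.09 and 10.41 on the fibroblast TAC arrays, and 10.03 and 10.31 on the endothelial sham and TAC arrays. All 3 probe sets were lower in both fibroblast populations, whereas in endothelial cells the others gave 0.11 and -0.39.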

How the results depend on the processing

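Of the genes' TAC differences under the alternatives, 620 values moved by less than the spread between the traced and untraced populations and 34 by more. Of the cell type differences, 485 kept direction and side of the threshold, 13 gained and 21 lost the call, and 19 changed sign. The count of genes at least 2-fold higher in both fibroblast populations was 1 with probe sets not of the s, x or a type. There Hif1a, whose main probe set is of the a type, gave 0.68 and 0.89. It was also 1 with quantile normalization, where 493 of all 12257 detected genes passed, and with 32 added before log2, where 429 of 12263 did. Slc16a3 in traced cells gave 0.93 and 0.98 under these settings. The count at least 2-fold lower in both was 1 with probe sets not of the s, x or a type. For untraced fibroblasts alone it was 1, where 2.95% of all detected genes were. In endothelial cells 1 gene, P4ha1, was 2-fold lower with the mean of all probe sets (-1.14) and 1 with quantile normalization (-1.01), where 311 of all 12257 detected genes were.

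Higher in fibroblasts by limma was 1 gene, Slc2a3, when detection was required on every array, which left out Hk2, Eno2 and Pfkfb4 (8.54% of all genes tested). There were 6 with surgery as a block (18.7%), Slc2a3, Slc16a1 and Slc16a3 in addition, and 5 with 4 fibroblast arrays entered separately (18%). The latter fit counts traced and untraced arrays, which may share hearts, as replicates. Higher in endothelial cells were 3 with traced arrays alone (6.14%). Leaving out 1 fibroblast array gave 2 to 4 genes higher (10.1% to 13% of all genes tested) and 3 to 5 lower (6.17% to 6.67%). Fits without an endothelial array leave 1 endothelial value and are not counted here. Over 17 alternatives Ankrd37 was called in 17, Egln1 in 15, Ndrg1 in 14, Epas1 in 12 and Pfkfb3 in 11.

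Every sign change concerned an uncalled difference. Centring arrays on their median gave 0.010 for Hk1, 0.0064 for Gapdh and 0.026 for Egln3. Untraced arrays alone gave 0.048 for Gapdh, 0.016 for Ldha and 0.095 for Egln3. Adm gave 0.23 with the mean of its probe sets and 0.66 with probe sets not of the s, x or a type. Leaving out 1 array gave -0.20 to 0.55 for Slc2a1, -0.16 to 0.079 for Hk1, -0.10 to 0.39 for Pfkm and -0.26 to 0.17 for Gapdh. It gave -0.20 to 1.44 for Pgk1, -0.12 to 0.70 for Pkm, -0.46 to 0.24 for Ldha and -1.06 to 1.02 for Egln3. The cause was not tested. No paired analysis was possible because each group has 1 array, so that a block on the replicate number cannot be formed; the fit with surgery as a block, given above, pairs the cell types by surgery instead.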

Other observations

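Among HIF pathway genes outside the 35, Stc2, a secreted glycoprotein, was lower after TAC in traced and untraced fibroblasts by -0.53 and -0.57. In endothelial cells it was higher by 1.81, from 5.99, which is below the array median of 6.84, to 7.80. The traced and untraced fibroblasts read 11.19 and 11.17 after TAC, and the part of the fibroblast markers in the endothelial difference was not tested. P4ha2, a collagen prolyl hydroxylase, was lower by -0.93 and -1.07 in fibroblasts and by -0.30 in endothelial cells. Ak4, a mitochondrial adenylate kinase, was higher by 0.84, 0.69 and 1.22, and was higher in fibroblasts than in endothelial cells by 2.56 (SE 0.52, n = 2; limma adjusted p = 0.0373). The endothelial sham level of Ak4, 5.82, also lay below the array median. The partner subunit Arnt was lower by -0.37, -0.58 and -0.39. These genes were named after their values were seen, and the differences between cell types in the response to TAC were not tested.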
